A study of Mus musculus with 16 samples.

Results

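Chemokines and their receptors were followed in the hearts of mice that had received AAV9-GFP or AAV9-Cardinal and then sham surgery or transverse aortic constriction (TAC). The family was defined by gene symbol: protein-coding genes of the count table named Ccl, Cxcl, Ccr, Cxcr or Ackr with a digit, together with Cx3cl1, Cx3cr1, Xcl1 and Xcr1. This gave 66 gene IDs with 61 symbols among 55573 genes in the table, because several ligand genes have further copies on unplaced scaffolds. At least 10 counts in 4 or more mice were reached by 32 gene IDs (29 symbols), and these were analysed among the 16971 genes tested.

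All mice were male and carried an AAV9 vector with the cTNT promoter, which is active in cardiomyocytes, and no uninjected mice were among the groups. The vector was given at postnatal day 1 and encoded either GFP (genotype AAV9-cTNT-GFP) or the full-length mouse long noncoding RNA Cardinal (AAV9-cTNT-CARDINAL). TAC ties a suture around the aorta and so raises the pressure against which the left ventricle works, whereas sham mice had the same operation without the ligature. Each virus was combined with each operation, 4 mice per combination, and RNA of the heart apex was taken for sequencing at 4 weeks after the operation.

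Chemokines are small secreted proteins that attract leukocytes along a gradient. They are grouped as CC, CXC, C and CX3C ligands by the spacing of their first cysteines, and they act through G protein-coupled receptors of matching classes. Atypical receptors (Ackr) bind chemokines without classical G protein signaling and take them up, which shapes the gradient. In the heart, Ccl2 is known for the recruitment of Ccr2+ monocytes, and Cxcl12 with its receptors Cxcr4 and Ackr3 is known for its part in vessel growth and progenitor homing.

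Between 16441997 and 21904589 counts per mouse were available, and only AAV9-Cardinal sham replicate 4 lay below 21525012. Values are given as normalized counts per library size (CPM, the usual unit) after TMM normalization, and 3 counts correspond to between 0.126 and 0.195 CPM, a floor that covers counting error only. The Cardinal transcript (Gm12295) measured 3.42 to 7.24 CPM in the AAV9-GFP hearts and 18.3 to 93.9 CPM in the AAV9-Cardinal hearts, and the natriuretic peptide gene Nppa rose after TAC with both viruses (log2 fold change 3.58 and 1.92). AAV9-Cardinal TAC replicate 1 stood apart: it held the highest Cardinal level, 93.9 CPM against 18.3 to 20.6 in the other TAC mice of that virus, and counts of lung surfactant genes, among them 393 of Sftpc and 85 of Sftpa1. AAV9-GFP sham replicate 1 also held 12 counts of Sftpc and 8 of Sftpa1. Results that changed without AAV9-Cardinal TAC replicate 1 are given with and without it. Apart from group, number and settings shared by all mice, the labels say nothing of each mouse, such as its litter or batch. The p-values therefore set group differences against the spread between these samples only.

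In AAV9-GFP sham hearts the most abundant member per kb of exon was Cxcl12, the ligand of Cxcr4 and Ackr3, at 19.0 ± 1.54 CPM per kb (SD, n = 4). Ackr3, the scavenging receptor for Cxcl12, followed at 13.5 ± 0.968 CPM per kb, then the CXC ligand Cxcl14 at 11.2 ± 1.59 and the CC ligand Ccl6 at 7.38 ± 1.01. The leukocyte receptors lay far lower, with Ccr2 at 0.180 ± 0.0594 and Cx3cr1 at 0.147 ± 0.0636 CPM per kb. Cxcr4 was the most abundant of the conventional receptors, at 2.50 ± 0.395 CPM per kb. Cxcr6 was the lowest of all analysed members on this scale, at 0.0378 ± 0.0484 CPM per kb. In bulk RNA of a whole piece of tissue, fewer cells of a type and less RNA per cell cannot be told apart.

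**Figure D1:**
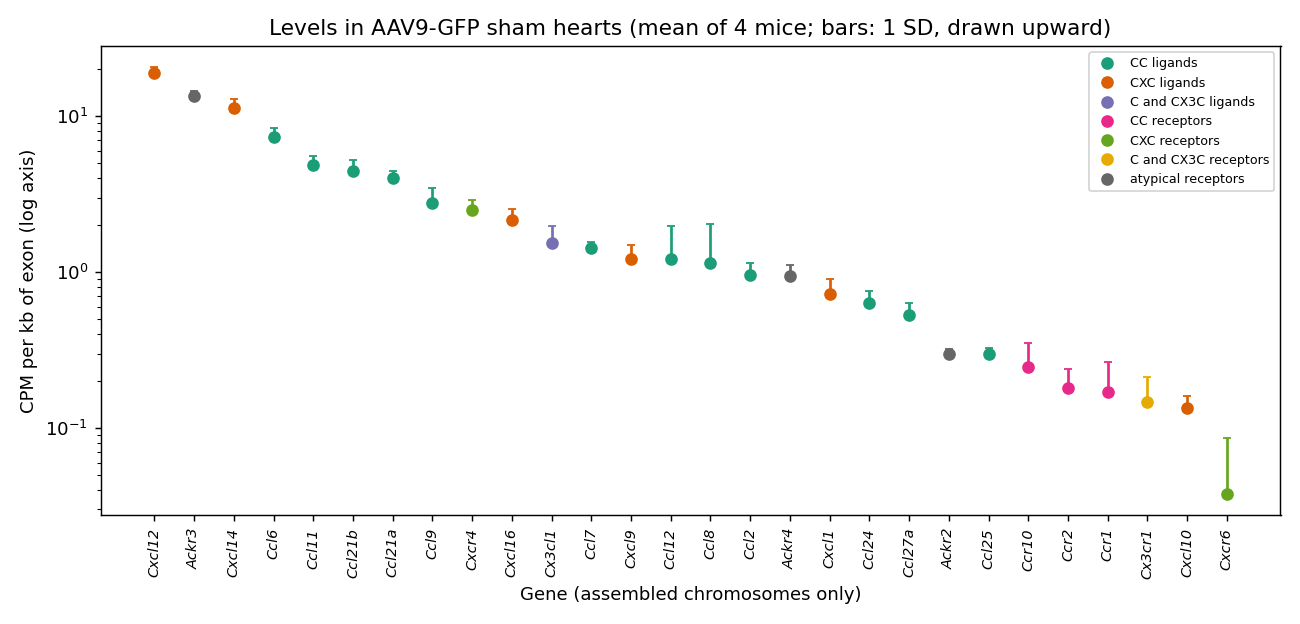
Mean level of the analysed members on assembled chromosomes in AAV9-GFP sham hearts, in CPM per kb of exon on a log axis, with 1 SD over 4 mice drawn upward and colors for the classes. Cxcl12 at 19.0 and Ackr3 at 13.5 CPM per kb lead, and 5 of the 6 lowest members are conventional receptors.

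To ask how the family responds to pressure overload, TAC was compared with sham surgery in AAV9-GFP hearts. Ccl2, Cxcr6, Cx3cr1, Ackr2 and Ackr3 rose and Ccl11 fell. This is 6 of 32 analysed members, or 18.8%, at an edgeR quasi-likelihood adjusted p under 0.05, beside 17.3% of all tested genes. The 5 higher calls stand beside a background of 8.42% of genes called higher, and the 1 lower call beside 8.89% called lower. An unadjusted p under 0.05 was reached by 13 members, beside 29.8% of all tested genes, and the median log2 fold change of the 32 was 0.39, against 0.0047 over all tested genes. Without the scaffold copies, 6 of 28 members were called (21.4%) and the median was 0.43.

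**Figure D2:**
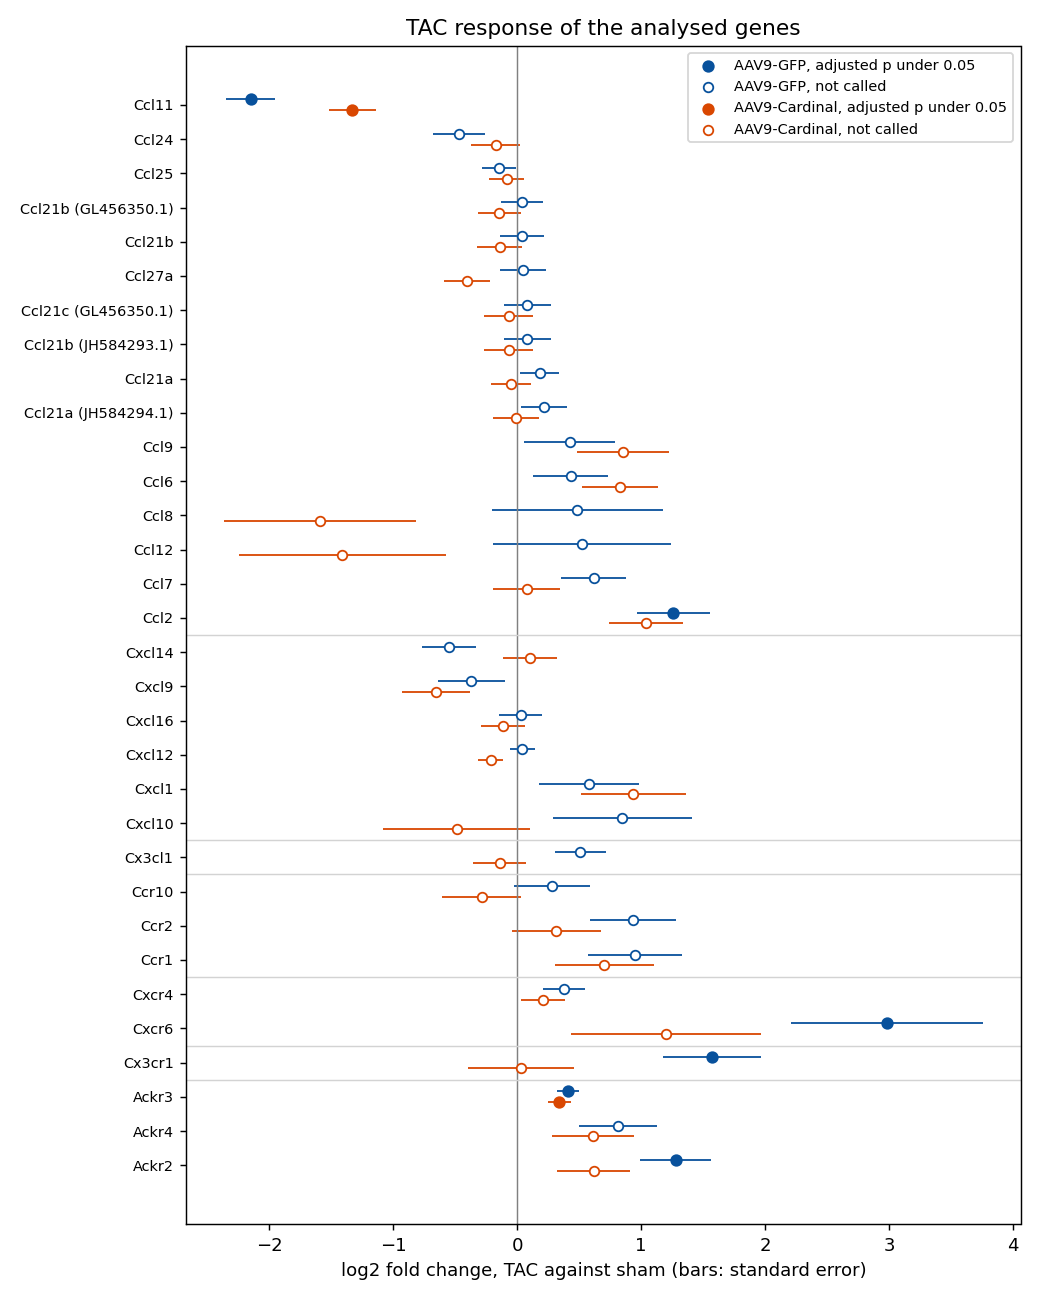
Log2 fold change of TAC against sham for the 32 analysed members, with standard errors, in AAV9-GFP hearts (blue) and AAV9-Cardinal hearts (orange); filled points passed the adjusted threshold and lines part the classes. In AAV9-GFP hearts 27 of 32 members had a positive value and 6 were called, and in AAV9-Cardinal hearts 14 had a positive value and 2 were called.

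Among the CC ligands, Ccl2 (monocyte chemoattractant protein) measured 0.852, 0.960, 1.23 and 1.32 CPM in the AAV9-GFP sham mice and 2.31, 2.52, 2.71 and 2.91 CPM in the AAV9-GFP TAC mice. All TAC mice lay above all sham mice. The log2 fold change was 1.26 (SE 0.30, adjusted p = 0.0086).

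Ccl11 (eotaxin), which draws eosinophils through Ccr3, went the other way. It measured 4.26, 5.71, 5.78 and 5.38 CPM in the AAV9-GFP sham mice and 1.33, 0.713, 1.36 and 1.35 CPM in the AAV9-GFP TAC mice. The groups were far apart, and replicate 3 of the TAC mice was the lowest. The log2 fold change was -2.15 (SE 0.20, adjusted p = 1.0e-05), the smallest adjusted p of the family. The reads of Ccr3, its main receptor, summed to 0 over the 16 mice.

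The other 14 analysed CC ligand IDs did not pass the threshold, with log2 fold changes between -0.47 for the eosinophil chemokine Ccl24 and 0.62 for the monocyte chemokine Ccl7. Ccl6, a macrophage chemokine and the CC ligand with the highest mean CPM, measured 13.1, 13.6, 10.9 and 15.3 CPM in sham and 10.8, 14.7, 17.8 and 28.1 CPM in TAC mice. The lowest and the highest value of Ccl6 were both in TAC mice (log2 fold change 0.43, SE 0.30, adjusted p = 0.38). Its neighbor Ccl9 gave 0.42 (SE 0.37, adjusted p = 0.49).

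Of the 6 analysed CXC ligands 0 were called by edgeR or by DESeq2 in AAV9-GFP hearts, and 1, Cxcl14, had an unadjusted p under 0.05 in edgeR. Cxcl12 measured 166, 144, 146 and 167 CPM in sham and 177, 154, 144 and 165 CPM in TAC mice. These values overlapped almost wholly (log2 fold change 0.04, SE 0.10, adjusted p = 0.85). Cxcl14, a chemokine of fibroblasts and epithelia, had a log2 fold change of -0.55 (SE 0.22, adjusted p = 0.10), and the interferon-induced Cxcl10 one of 0.85 (SE 0.56, adjusted p = 0.34). Part of the exons of Cxcl10 overlaps Art3 and part of those of Cxcl16 overlaps Zmynd15, each on the other strand. The same holds for Ackr4 (479 bases, with Acad11), Ccl25 (204, with Elavl1), the called Cx3cr1 (78, with Gm33858) and Ccl27a (8, with Il11ra1). The use of strand in the counting is not given in the sources used here.

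Cx3cl1 (fractalkine), the membrane-bound ligand of Cx3cr1, measured 4.35, 8.02, 6.81 and 4.79 CPM in sham and 7.37, 10.7, 7.57 and 8.48 CPM in TAC mice. The ranges overlapped, through sham replicate 2. It was not called (log2 fold change 0.51, SE 0.21, adjusted p = 0.11), but it passed without AAV9-GFP sham replicate 2 (0.68, adjusted p = 0.047).

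Every analysed receptor, conventional or atypical, had a positive log2 fold change after TAC in AAV9-GFP hearts. Ccr2, the receptor of Ccl2 on monocytes, measured 1.70, 1.30, 0.735 and 1.12 CPM in the AAV9-GFP sham mice and 2.18, 2.89, 1.53 and 2.69 CPM in the TAC mice. The ranges overlapped through TAC replicate 4 and sham replicate 1, and it did not pass (log2 fold change 0.93, SE 0.35, adjusted p = 0.080). It passed in 2 of 24 alternatives, without AAV9-Cardinal sham replicate 1 (adjusted p = 0.0176) and without AAV9-GFP TAC replicate 4 (0.0493). Ccr1, a receptor of several inflammatory CC ligands, was not called (0.95, SE 0.38, adjusted p = 0.10).

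Cxcr6, the receptor of Cxcl16 on T cells and NK T cells, was close to the floor in sham hearts, with 0, 2, 0 and 4 counts. The TAC mice had 16, 16, 10 and 15 counts, or 0.686, 0.671, 0.437 and 0.652 CPM. All TAC mice lay above all sham mice. Summed over the group, 57 counts against 6 gave a CPM ratio of 8.46, with a 95% exact counting interval of 3.65 to 24.0 that covers counting error only, not the spread between mice. The fitted log2 fold change was 2.98 (SE 0.77, adjusted p = 0.015), and edgeR's own expression filter, used as an alternative, leaves this gene out. Cxcr4 measured 3.45, 4.71, 4.90 and 4.99 CPM in sham and 4.58, 6.46, 5.20 and 7.22 CPM in TAC mice. Its ranges overlapped through TAC replicate 1, and it was not called (log2 fold change 0.38, SE 0.17, adjusted p = 0.15).

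Cx3cr1, the fractalkine receptor of resident macrophages and monocytes, measured 0.804, 0.720, 0.882 and 0.244 CPM in sham and 2.74, 2.39, 1.05 and 1.74 CPM in TAC mice. Each TAC mouse was above each sham mouse. The log2 fold change was 1.57 (SE 0.40, adjusted p = 0.013).

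Of the 3 analysed atypical receptors, Ackr2 and Ackr3 were called. Ackr2, a scavenger of inflammatory CC chemokines, measured 0.899, 1.01, 0.980 and 0.831 CPM in sham and 1.37, 3.73, 1.84 and 2.13 CPM in TAC mice, a log2 fold change of 1.28 (SE 0.29, adjusted p = 0.0062). The sham mice lay close together and TAC replicate 3 was the highest. Ackr3 measured 43.3, 46.5, 41.6 and 48.8 CPM in sham and 49.8, 65.9, 58.1 and 65.4 CPM in TAC mice. All TAC mice were above the sham mice, although by less in proportion (log2 fold change 0.41, SE 0.09, adjusted p = 0.0063). Ackr4, which scavenges Ccl19, Ccl21 and Ccl25, was not called (0.81, SE 0.32, adjusted p = 0.093). For each of the 6 called members the exact two-sided permutation test gave p = 0.029, the smallest that 70 labelings of 4 mice against 4 can give, or 0.14 after Benjamini-Hochberg adjustment over 44 such tests. These members were chosen by their calls on the same mice, so this p-value is not independent support. The share of all tested genes without overlap is not given here for any comparison.

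**Figure D3:**
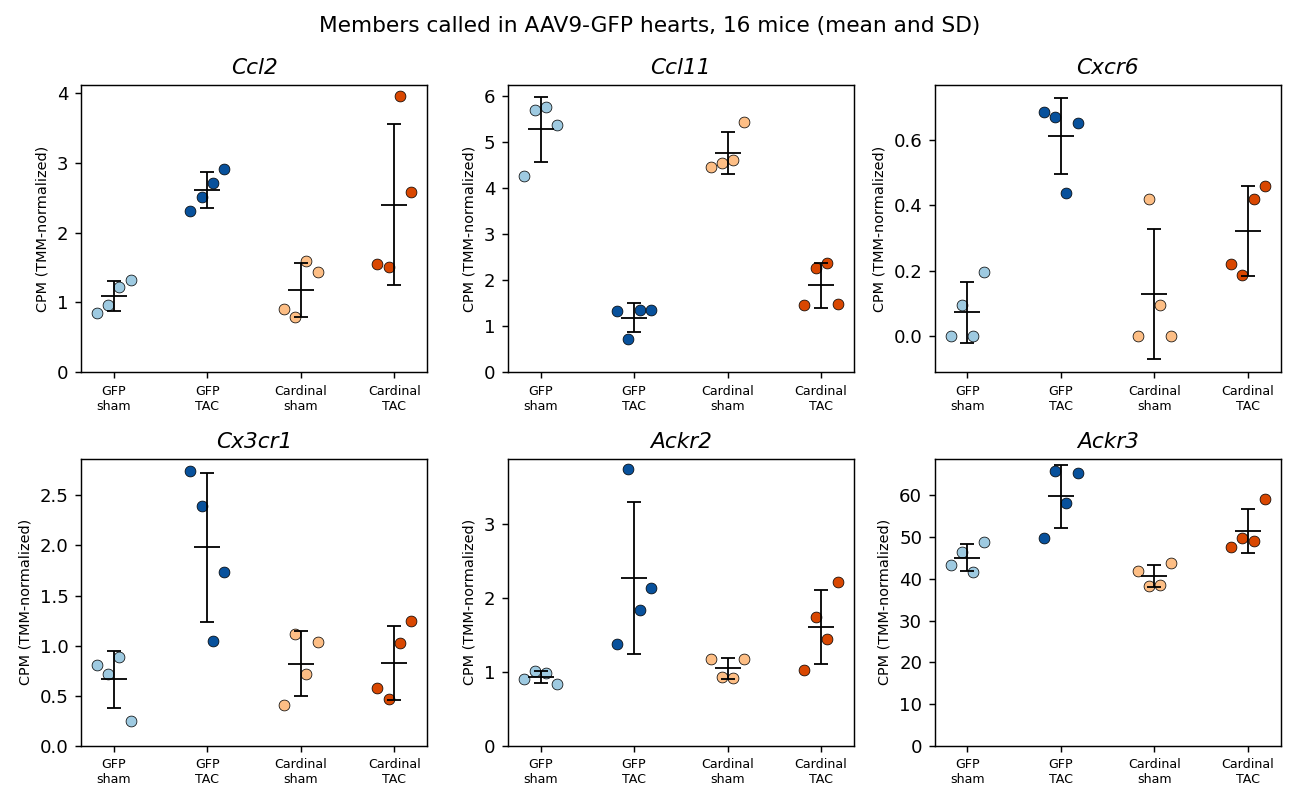
CPM of the 6 members called in AAV9-GFP hearts, with a point for each of 16 mice and the group mean with its SD. In AAV9-GFP hearts no TAC mouse overlaps a sham mouse in any panel, and in AAV9-Cardinal hearts this holds for Ccl11 and Ackr3. The panels show genes chosen by their calls, and the share of all tested genes without overlap is not given here.

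Of the 6 called members, 4 had an entry in the RefSeq promoters used here (GRCm38.p6), namely Ackr2, Ackr3, Cx3cr1 and Cxcr6, whereas Ccl2 and Ccl11 had none. The 250 bases before the start of those 4 genes are shown, 5′ to 3′ on the strand of the gene. They come from chr9:121898105-121898354 (plus strand) for Ackr2, chr1:90203730-90203979 (plus) for Ackr3, chr9:120068297-120068546 (minus) for Cx3cr1 and chr9:123806227-123806476 (plus) for Cxcr6. Capitals mark matches to the NF-kappaB motif in Ackr2, whose first bases lie at positions -224 and -64 from the start, and to the TATA box (TATAAA) in Ackr3, at position -8.
Ackr2: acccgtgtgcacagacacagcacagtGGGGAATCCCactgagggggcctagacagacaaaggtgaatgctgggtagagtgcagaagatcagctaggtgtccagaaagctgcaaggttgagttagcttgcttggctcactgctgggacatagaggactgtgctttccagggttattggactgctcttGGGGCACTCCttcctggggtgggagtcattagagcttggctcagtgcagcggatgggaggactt
Ackr3: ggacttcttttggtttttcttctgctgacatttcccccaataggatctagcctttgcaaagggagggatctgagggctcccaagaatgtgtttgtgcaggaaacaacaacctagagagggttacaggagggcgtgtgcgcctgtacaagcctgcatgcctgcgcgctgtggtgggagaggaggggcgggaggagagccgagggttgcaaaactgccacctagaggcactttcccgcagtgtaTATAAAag
Cx3cr1: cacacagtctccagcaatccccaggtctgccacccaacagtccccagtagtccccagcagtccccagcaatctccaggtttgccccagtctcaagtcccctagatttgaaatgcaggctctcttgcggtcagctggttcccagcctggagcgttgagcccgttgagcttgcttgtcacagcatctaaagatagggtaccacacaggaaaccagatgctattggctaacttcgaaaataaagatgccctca
Cxcr6: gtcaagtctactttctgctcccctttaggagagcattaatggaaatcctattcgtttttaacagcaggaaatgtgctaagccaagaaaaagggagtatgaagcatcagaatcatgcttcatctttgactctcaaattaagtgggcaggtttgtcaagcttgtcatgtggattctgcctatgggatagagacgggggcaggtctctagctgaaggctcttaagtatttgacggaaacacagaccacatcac

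The NF-kappaB motif was searched on both strands and the TATA box on the strand of the gene. The AP-1 motif TGANTCA and the STAT motif TTCNNNGAA, searched on both strands, were in none of the 4 sequences, and the letters of these motifs were not otherwise matched in Cx3cr1 and Cxcr6. Over 32851 promoter entries of the same length, 7.25% held the NF-kappaB motif, 7.59% the TATA box, 6.75% the AP-1 motif and 7.02% the STAT motif. A match describes these letters and was not tested as a site.

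The same question was asked in AAV9-Cardinal hearts, where Ccl11 fell and Ackr3 rose after TAC. These were 2 of 32 members, or 6.25%, by edgeR, beside 6.42% of all tested genes. An unadjusted p under 0.05 was reached by 8 members, beside 21.7% of all tested genes. The median log2 fold change was -0.06 and 14 members had a positive value. Without the scaffold copies, 2 of 28 members were called (7.14%), the median was -0.0088, and 14 values were positive and 14 negative.

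Ccl11 measured 4.48, 4.56, 4.61 and 5.45 CPM in AAV9-Cardinal sham mice and 1.46, 2.26, 2.37 and 1.47 CPM in AAV9-Cardinal TAC mice. The groups were again fully apart (log2 fold change -1.33, SE 0.19, adjusted p = 0.0016). Ackr3 measured 41.9, 38.3, 38.6 and 43.9 CPM in sham and 47.6, 49.9, 49.2 and 59.3 CPM in TAC mice. Here too the groups did not overlap (log2 fold change 0.34, SE 0.09, adjusted p = 0.041). The exact permutation p of both genes was 0.029, again for genes chosen by their calls on the same mice. The call of Ackr3 was held in 13 of 24 alternatives, with adjusted p from 0.011 to 0.32, and was lost without any of AAV9-Cardinal sham replicates 1 to 4, AAV9-Cardinal TAC replicates 4, 5 or 6, AAV9-GFP sham replicate 2 or AAV9-GFP TAC replicate 4, and also with no filter on low counts (adjusted p = 0.067) and with a replicate block (0.32).

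Ccl2 measured 0.904, 0.790, 1.59 and 1.43 CPM in AAV9-Cardinal sham mice and 1.55, 1.504, 3.96 and 2.58 CPM in TAC mice. Its ranges touched, since TAC replicates 1 and 4 lay below sham replicate 3. With a log2 fold change of 1.04 (SE 0.30) its adjusted p was 0.051, and without AAV9-Cardinal TAC replicate 1, the library with surfactant counts, it was 0.024 (log2 fold change 1.20). It also passed without AAV9-Cardinal sham replicate 3 (adjusted p = 0.046) and without AAV9-Cardinal TAC replicate 4 (0.031), and in DESeq2 (0.025).

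The receptors Cx3cr1, Cxcr6 and Ackr2, called in AAV9-GFP hearts, overlapped between sham and TAC mice here. Cx3cr1 measured 0.407, 1.12, 0.721 and 1.04 CPM in sham and 0.575, 0.470, 1.02 and 1.24 CPM in TAC mice (log2 fold change 0.03, SE 0.43, adjusted p = 0.98). Ccr2 measured 2.49, 1.07, 0.721 and 0.649 CPM in sham and 1.64, 1.27, 1.58 and 1.79 CPM in TAC mice, and sham replicate 1 was the highest of these 8 mice (0.32, SE 0.36, adjusted p = 0.69).

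Cxcr6 had 0, 9, 2 and 0 counts in sham and 5, 4, 9 and 10 counts in TAC mice. Sham replicate 2 reached the level of the TAC mice, and the CPM ratio of the summed counts, 28 against 11, was 2.33 with a 95% exact counting interval of 1.13 to 5.20 that likewise leaves out the spread between mice. Of the 11 sham counts 9 came from that mouse, and the gene was not called (fitted log2 fold change 1.20, SE 0.77, adjusted p = 0.40). Ackr2 measured 1.18, 0.930, 0.913 and 1.17 CPM in sham and 1.02, 1.74, 1.44 and 2.21 CPM in TAC mice, and only TAC replicate 1 lay within the sham range (0.62, SE 0.29, adjusted p = 0.24). Ackr4 was not called (0.61, SE 0.33, adjusted p = 0.30), and it measured 9.47 CPM in TAC replicate 1, the library with surfactant counts, against 5.02 to 5.17 CPM in the other TAC mice of that virus.

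Among the most abundant members that were not called, Cxcl12 measured 177, 177, 141 and 155 CPM in AAV9-Cardinal sham and 148, 119, 130 and 163 CPM in TAC mice (log2 fold change -0.21, SE 0.10, adjusted p = 0.23). Ccl6 measured 7.96, 11.7, 13.8 and 17.7 CPM in sham and 14.2, 27.1, 32.0 and 17.0 CPM in TAC mice (0.83, SE 0.30, adjusted p = 0.12). Cxcr4 measured 3.44, 3.25, 4.61 and 4.28 CPM in sham and 3.36, 5.17, 4.52 and 4.88 CPM in TAC mice (0.21, SE 0.18, adjusted p = 0.56). The sham and TAC ranges of these genes overlapped. Cx3cl1 measured 5.42, 6.14, 8.41 and 6.95 CPM in sham and 7.08, 4.47, 5.31 and 7.50 CPM in TAC mice, also overlapping (-0.14, SE 0.21, adjusted p = 0.78).

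**Figure D4:**
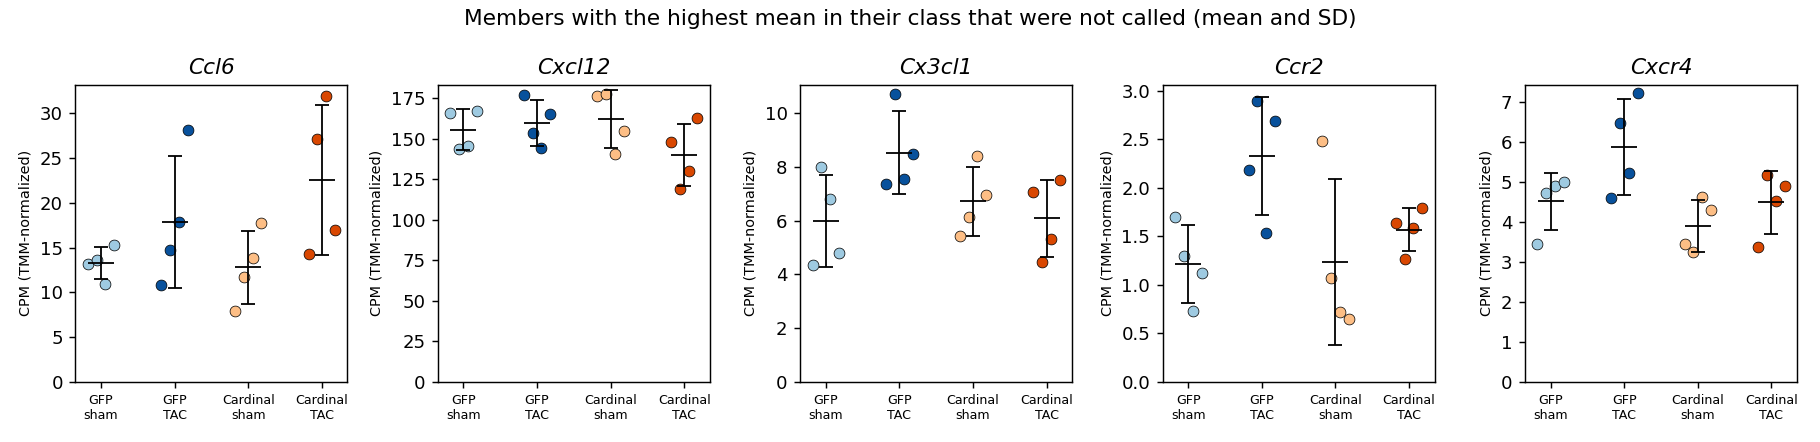
CPM of Ccl6, Cxcl12, Cx3cl1, Ccr2 and Cxcr4, the members with the highest mean CPM in their classes that were not called, with a point for each of 16 mice and the group mean with its SD. The sham and TAC mice of either virus overlap in every panel.

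The response of a gene in the presence of each virus does not show by itself whether the viruses differ, so AAV9-Cardinal and AAV9-GFP were compared directly. Within TAC hearts 0 of 32 members were called by edgeR and by DESeq2, beside 0.1% of all tested genes. An unadjusted p under 0.05 was reached by 6 members, with 2 higher and 4 lower in AAV9-Cardinal hearts, beside 14.9% of all tested genes. The smallest adjusted p was 0.14, for Cx3cr1 (log2 fold change -1.25, SE 0.38), whose AAV9-Cardinal TAC values of 0.470 to 1.24 CPM overlapped the AAV9-GFP TAC values of 1.05 to 2.74 CPM. Cx3cl1 (-0.49, SE 0.21, adjusted p = 0.28) and Ccr2 (-0.56, SE 0.33, adjusted p = 0.46) had values in the same direction, and 26 of 32 members had a negative value, with a median of -0.25 against -0.0066 over all tested genes. Without the scaffold copies of the ligand genes it was 22 of 28, with a median of -0.28.

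Ccl11 was among the 6 members with a positive value. All AAV9-Cardinal TAC mice, at 1.46 to 2.37 CPM, lay above all AAV9-GFP TAC mice, at 0.713 to 1.36 CPM (log2 fold change 0.67, SE 0.21, adjusted p = 0.16, exact permutation p = 0.029, or 0.14 adjusted). Such a separation was seen for 1 of 11 named members in this comparison, and the share of all tested genes without overlap is not given here. Ccl24 had a value in the same direction as Ccl11 (0.58, SE 0.21, adjusted p = 0.24).

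In sham hearts 0 of 32 members were called by edgeR and by DESeq2, beside 0.0118% of all tested genes, and none had an unadjusted p under 0.05. The median log2 fold change, AAV9-Cardinal minus AAV9-GFP, was 0.02, with 16 positive and 16 negative values.

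The difference of the TAC response between the viruses, tested as an interaction, also gave 0 of 32 members by edgeR and by DESeq2, beside 0.0118% of all tested genes. Here 3 members had an unadjusted p under 0.05, beside 10.2% of all tested genes. The difference (AAV9-Cardinal minus AAV9-GFP) was -1.54 for Cx3cr1 (SE 0.59, adjusted p = 0.40), -0.65 for Cx3cl1 (SE 0.30, adjusted p = 0.48) and 0.82 for Ccl11 (SE 0.27, adjusted p = 0.35). A difference between the viruses was therefore not shown for any member. It was -0.62 for Ccr2 (SE 0.50, adjusted p = 0.71). The standard errors of these receptors, 0.50 and 0.59 on the log2 scale, set how small a difference could have been seen.

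Members often lie next to each other in the genome, and neighbors did not always move alike. On chromosome 11 of GRCm38, Ccl2 (82035571 to 82037453), Ccl7, Ccl11 (82057823 to 82062955), Ccl12 and Ccl8 follow each other on the plus strand. The start of Ccl11 is 22.3 kb from that of Ccl2, and their log2 fold changes after TAC in AAV9-GFP hearts were -2.15 and 1.26. Ccl12 and Ccl8 had positive values in AAV9-GFP hearts (0.52 and 0.49) and negative ones in AAV9-Cardinal hearts (-1.41 and -1.59). Their standard errors were 0.69 to 0.84, and neither was called. In the AAV9-Cardinal TAC mice Ccl8 measured 0.619, 0, 0 and 0.506 CPM, against 0.584 to 1.20 CPM in sham mice.

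On chromosome 9, Cxcr6, Ccr1 and Ccr2 (124101950 to 124113557) lie within the 435 kb from the start of Ccr9 to the end of Ccr2, and all 3 had positive values with both viruses. Of the 6 analysed members on chromosome 9, 3 were called, in AAV9-GFP hearts only. Cxcr6 lies in that span, whereas Cx3cr1 (start 119901616) and Ackr2 (start 121898355) lie outside it. The share of genes called on chromosome 9 among all tested genes is not given here.

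**Figure D5:**
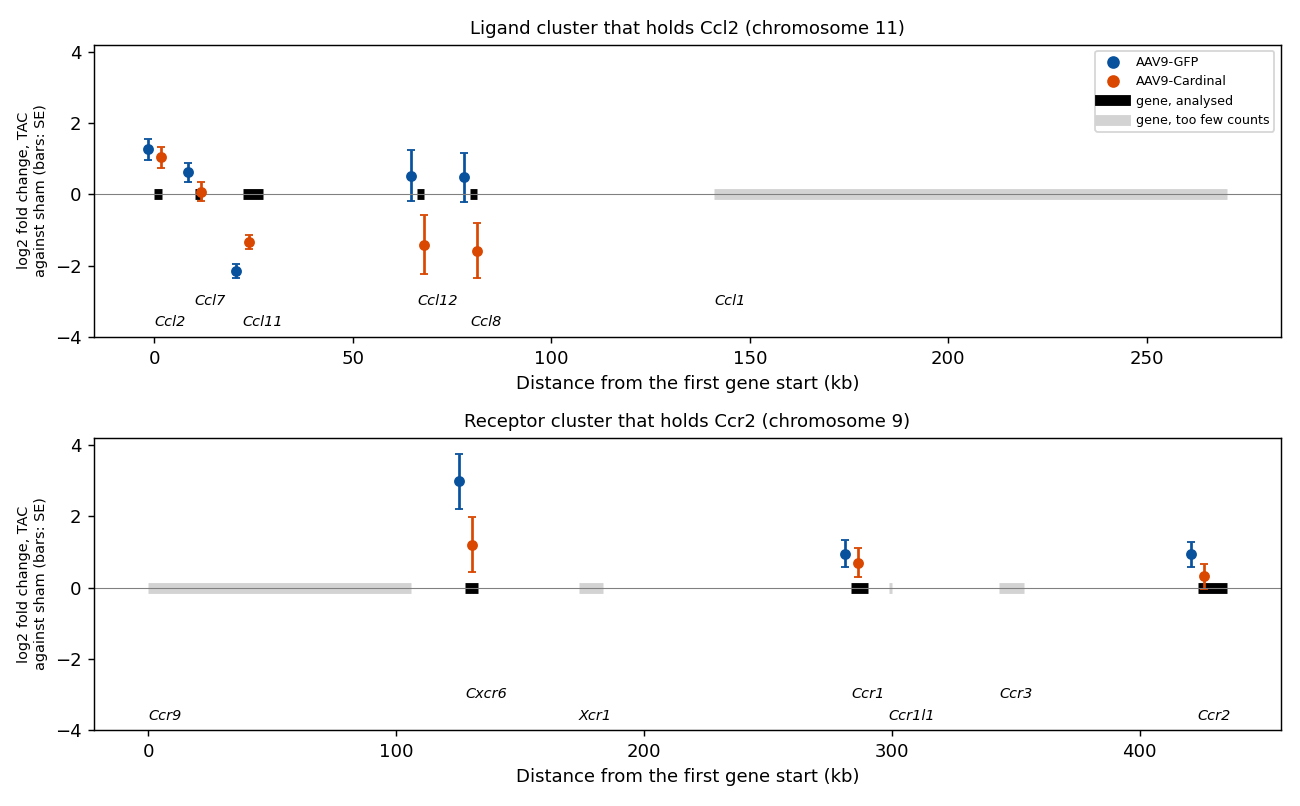
Log2 fold change of TAC against sham with its standard error for the members of the Ccl2 cluster on chromosome 11 and the Ccr2 cluster on chromosome 9, by distance from the first gene start in kb; bars at 0 mark the genes, in grey where the counts were too few. Ccl11 at 22.3 kb lies below 0 with both viruses, between Ccl7 and Ccl12, whereas the 3 analysed receptors lie above 0.

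A list of 41 further genes of chemokine signaling, holding other ligands and receptors, G proteins, arrestins, kinases, Rgs proteins and sheddases, had 38 tested members. After TAC in AAV9-GFP hearts 5 were called higher and 1 lower, beside 8.42% and 8.89% of all tested genes, with a median log2 fold change of 0.17. Rgs2, which shortens Gq signaling, fell (-1.24, SE 0.23, adjusted p = 0.0017). The chemerin receptor gene Cmklr1 (0.70, SE 0.15, adjusted p = 0.0057), the Gi regulator Rgs19 (0.56, SE 0.14, adjusted p = 0.013), the Dock2 partner Elmo1 (0.48, SE 0.13, adjusted p = 0.023) and the Src family kinase Lyn (0.28, SE 0.09, adjusted p = 0.042) rose. Mif, a cytokine that also binds Cxcr4, rose as well (0.26 on the log2 scale, SE 0.07, adjusted p = 0.025). In AAV9-Cardinal hearts only Plcb3, a phospholipase C downstream of Gi and Gq, was called in that list, with a fall (-0.19, SE 0.05, adjusted p = 0.047), beside 6.42% of all tested genes.

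Markers of the cells that carry these receptors were measured beside them. The 8 macrophage markers summed to 107 to 128 CPM in AAV9-GFP sham and 115 to 148 CPM in AAV9-GFP TAC mice, and 1 of 8, the Fc receptor gene Fcgr1, was called higher (0.60, SE 0.16, adjusted p = 0.015). The 6 T cell markers summed to 0.882 to 1.104 CPM in AAV9-GFP sham and 1.114 to 1.72 CPM in AAV9-GFP TAC mice. The ranges did not overlap, but the gap from 1.104 to 1.114 CPM was smaller than the floor of 3 counts (at least 0.126 CPM). Only 1 of the 6, Cd4, had enough counts to be tested, and it was not called (0.46, SE 0.26, adjusted p = 0.25). Cd4 averaged 0.866 CPM over all mice, beside mean sums of 0.965 CPM in sham and 1.44 CPM in TAC mice. The sums thus rest largely on Cd4, and Cd3d was at 0 in AAV9-GFP sham mice. The NK cell markers were at 0 in all AAV9-GFP sham mice and reached at most 0.131 CPM in TAC mice. The part of these cells in the rise of Cxcr6 and Cx3cr1 was not tested.

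Of the other immune lists, no monocyte, neutrophil, dendritic cell, mast cell or platelet marker was called in AAV9-GFP hearts, and no B cell marker had enough counts to be tested. Those tested were 1 of 4 monocyte, 3 of 5 neutrophil, 2 of 4 dendritic cell, 4 of 4 mast cell and 2 of 4 platelet markers. In AAV9-Cardinal hearts the only tested monocyte marker, Ly6c2, rose after TAC (0.55, SE 0.14, adjusted p = 0.028). So did 1 of the 2 tested dendritic cell markers, Clec9a (0.63, SE 0.18, adjusted p = 0.046). The monocyte marker Chil3 was at 0 in AAV9-Cardinal sham mice, and the dendritic cell marker Flt3 was at 0 in sham and TAC mice of that virus. Each rise is thus that of a single gene, and a change in the number of these cells was not tested.

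Among structural cells, in AAV9-GFP hearts 1 of 4 fibroblast markers was called higher, Col1a1 (1.46, SE 0.19, adjusted p = 1.3e-04), with a list median of 0.27. Of 4 endothelial markers 1 was called higher, Cdh5 (0.25, SE 0.06, adjusted p = 0.011), with a list median of 0.23. Of 4 mural cell markers Pdgfrb rose (0.55, SE 0.10, adjusted p = 0.0011) and Abcc9 fell (-0.67, SE 0.06, adjusted p = 1.3e-05). The mural list median was -0.089. Of 4 lymphatic markers 1 was called lower, Reln (-0.41, SE 0.12, adjusted p = 0.034), with a list median of 0.0087. Of the cardiomyocyte markers 3 of 4 fell, among them Tnnt2 (-0.39, SE 0.06, adjusted p = 4.9e-04), with a list median of -0.30. In AAV9-Cardinal hearts Abcc9 fell (-0.47, SE 0.06, adjusted p = 0.0012), and no other structural marker was called there. Erythroid and mesothelial markers were not called, and adipocyte markers and the lung epithelium genes, the latter listed after their values had been seen, had too few counts to be tested.

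Ccl21, the ligand of Ccr7 that guides dendritic cells into lymphatic vessels, is present in 6 analysed copies. Ccl21b on JH584293.1 and Ccl21c on GL456350.1 had equal counts in 16 of 16 mice, and Ccl21b on chromosome 4 and on GL456350.1 in 12 of 16, with a largest difference of 1. Every 50-base stretch of Ccl21b is shared with another annotated gene, so these values are uncertain and are not independent. None of the copies was called, and their log2 fold changes after TAC lay between 0.04 and 0.22 in AAV9-GFP hearts.

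The remaining 34 gene IDs (32 symbols) had too few counts to be analysed, and 6 had none in any mouse. They hold the inflammatory CC ligands Ccl3, Ccl4 and Ccl5, with at most 5, 2 and 10 counts in a mouse, the neutrophil receptor Cxcr2 with at most 12, and the T cell receptor Cxcr3 with at most 3. The other CC ligands in this set are Ccl1, Ccl17, Ccl19, Ccl20, Ccl22, Ccl26, Ccl27, Ccl27b and Ccl28. The CXC ligands are Cxcl2, Cxcl3, Cxcl5, Cxcl13, Cxcl15 and Cxcl17, and Xcl1 stands for the C class. The receptors are Ccr1l1, Ccr3, Ccr4, Ccr6, Ccr7, Ccr8, Ccr9, Cxcr1, Cxcr5, Xcr1 and Ackr1. The 17 counts of Cxcl15, a lung chemokine, all came from AAV9-Cardinal TAC replicate 1, the library with surfactant counts.

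The remaining analysed members were not called with either virus. The skin and gut chemokines Ccl27a and Ccl25 had log2 fold changes of 0.05 and -0.14 in AAV9-GFP hearts and -0.40 and -0.08 in AAV9-Cardinal hearts, and the membrane-bound Cxcl16, ligand of Cxcr6, had 0.03 and -0.11. The values were 0.58 and 0.94 for the neutrophil chemokine Cxcl1, -0.37 and -0.65 for the interferon-induced Cxcl9, and 0.28 and -0.28 for the skin-homing receptor Ccr10.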

How the data were processed

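Poly(A)-selected libraries of 16 hearts (4 groups of 4 mice) were read as 50-base single-end sequences. The table the authors deposited holds counts of reads for each Ensembl gene, with no normalization. The submitters' processing notes name FastQC, HISAT2 2.1.0, edgeR 3.26.1 and GRCm38. The counting program, annotation and use of strand are not given in the sources used here. Genes were named with GENCODE M21.

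The analysis used edgeR 4.0.16 (R 4.3.3): at least 10 counts in 4 or more columns (16971 genes), TMM normalization and 1 quasi-likelihood fit of all mice by group, with Benjamini-Hochberg adjustment over all tested genes and a threshold of 0.05. The SE is the absolute log2 fold change divided by the square root of its quasi-likelihood F. CPM used TMM library sizes. Lengths are the union of exons. The method was tested on simulated data. Replicate pairs differed by more than sampling noise (chi-square per degree of freedom 5.3 to 15.9). Named members were those called in any comparison and the highest by mean CPM in each class. Single genes were compared by exact permutation in Python 3.11.15 with scipy 1.17.1. One gene that meets the symbol rule is not reported here and was left out of the member counts, but was kept in the fits. Members and lists were chosen with earlier results of these data known. Alternatives were RLE size factors, DESeq2 1.42.0, other filters, only the 8 mice compared, no mitochondrial genes, a replicate block and each mouse left out. Promoters came from RefSeq (GRCm38.p6), with an entry for 46 of 61 member symbols and 4 of the 6 called members. Plots used matplotlib 3.10.9.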

Additional observations from a re-analysis of the deposited data

Results flagged for a closer look

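The gap of the lowest or highest mouse to the next was large for its group of 4 in 3 of 44 groups tested over the named members, where chance gives about 2.2. Ccl11 measured 0.713 CPM in AAV9-GFP TAC replicate 3 and 1.33 to 1.36 in the other mice of that group. Ccl11 measured 5.45 CPM in AAV9-Cardinal sham replicate 4, the library with the lowest total, and 4.48 to 4.61 in the others. Cxcr6 measured 0.437 CPM in AAV9-GFP TAC replicate 4 and 0.652 to 0.686 in the others.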

How the results depend on the processing

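The number of members called after TAC in AAV9-GFP hearts was between 5 and 7 in all alternatives run, and 6 to 7 when each mouse was left out. In AAV9-Cardinal hearts the 2 calls became 1 with no filter on low counts and 1 to 3 when each mouse was left out. That count was 1 without AAV9-Cardinal sham replicate 1, 2 or 4, AAV9-Cardinal TAC replicate 5 or 6, AAV9-GFP sham replicate 2 or AAV9-GFP TAC replicate 4. The labels number the mice within groups, and the deviations of same-numbered mice had correlations r between -0.04 and 0.21. For replicate 1, r was positive in every pair of groups (0.068 to 0.21), and for the other numbers it was -0.04 to 0.089. The labels do not say whether the numbers mark a pairing or a batch, and this was not tested. With a replicate block 7 members were called in AAV9-GFP hearts and 0 in AAV9-Cardinal hearts, where Ccl11 had a log2 fold change of -1.40 (adjusted p = 0.061) and Ackr3 one of 0.26 (0.32). Comparisons of the viruses and the interaction gave 0 in all alternatives run. Leaving out both libraries with surfactant counts, an alternative chosen after seeing the data, gave 7 and 3 calls. Of 1304 values of named members under alternatives, 1262 kept direction and side of the threshold, 12 lost the call, 8 gained it and 22 changed sign. The causes were not tested.

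The changes of sign, all without a call, were as follows on the log2 scale. For TAC in AAV9-Cardinal hearts, the replicate block gave 0.031 for Cx3cl1 and -0.35 for Cx3cr1, and Cx3cr1 ranged from -0.23 to 0.24 when each mouse was left out. For TAC in AAV9-GFP hearts, Cxcl12 ranged from -0.0064 to 0.089 in the same way. For AAV9-Cardinal against AAV9-GFP in TAC hearts, Ccl2 ranged from -0.48 to 0.041 with each mouse left out and was 0.037 without both surfactant libraries. In sham hearts, leaving out each mouse gave -0.098 to 0.25 for Ccl2, -0.25 to 0.11 for Ccl6, -0.559 to 0.26 for Ccr2 and -0.97 to 1.91 for Cxcr6, Ccl2 was -0.00667 without both surfactant libraries, and Ccr2 was -0.0121 with the replicate block. For the interaction, Ccl2 gave 0.044 and Cxcr4 0.053 without both surfactant libraries, and Cxcr6 ranged from -2.83 to 0.053 when each mouse was left out (0.053 without AAV9-Cardinal sham replicate 2). Depth limits the sparse members, such as Cxcr6 and Cx3cr1 with 0 to 64 counts per mouse and Ccl8 and Ccl12 with 0 to 44.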
